A study of Mus musculus with 14 samples.

Results

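The 10 genes described here encode the enzymes that hydroxylate proline and lysine in collagen, with the partners that these enzymes need: P4ha1, P4ha2, P4ha3 and P4hb of prolyl 4-hydroxylase, Plod1, Plod2 and Plod3 of the lysyl hydroxylases, and P3h1, P3h2 and Crtap of the prolyl 3-hydroxylases. They were taken as a named family from the 37991 genes of the deposited expression files, with earlier results of these data known. All 10 were found, and 9 of them were among the 16033 genes with enough fragments to be tested. P4ha3 was not.

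The cells were mouse embryonic stem cells of the C57BL/6 strain with reporters of the mir-290 cluster (mCherry) and the mir-302 cluster (eGFP). In the first experiment cells seeded sparsely spent 5 days in 1 of 5 media, and each medium gave 2 libraries. FBS/LIF holds serum and leukemia inhibitory factor (LIF), which helps stem cells renew themselves. VitC/LIF is FBS/LIF with 500 µM vitamin C, and 2i/LIF has the kinase inhibitors that favour the naive state. L-Pro/LIF is FBS/LIF with L-proline, whose amount the labels leave out for these libraries. F/A is N2B27, free of serum, with 20 ng/ml of activin A and 12 ng/ml of bFGF, and its title names no LIF. The second experiment has 4 single libraries from cells labelled positive for both reporters, with RNA isolated by Trizol in place of RNeasy. Its day 0 cells are titled untreated, yet the protocol lists 100 µM vitamin C in their serum and LIF. The others had 1 mM L-proline for 5 days, or F/A for 3 or 5 days. For these F/A libraries activin A is listed at 20 ng/ml, and no bFGF amount is given. No label states that the libraries of a medium are separate cultures, so p-values measure the spread between these libraries, which may be technical.

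Mapped fragments per library ran from 17778399 to 26354444 in the first experiment, except for 6937945 in F/A replicate 1, and total counts ran from 33162689 to 39711061 in the second. Levels are given as TMM-scaled CPM, a gene's fragments relative to the library total. Levels of different genes are compared only as FPKM, which divides by length and by mapped fragments and carries no TMM scaling. Fold changes are log2, with a standard error (SE), from edgeR's quasi-likelihood F test with Benjamini-Hochberg adjusted p-values over all 16033 genes and a threshold of 0.05.

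Collagen chains are modified in the endoplasmic reticulum before they fold into a triple helix. Prolyl 4-hydroxylase pairs a catalytic alpha subunit, encoded by P4ha1, P4ha2 or P4ha3, with the beta subunit P4hb, which is protein disulfide isomerase and has other clients too, and 4-hydroxyproline stabilises the helix. The lysyl hydroxylases prepare lysines for cross-links and for sugar attachment, and P3h1 works in a complex with Crtap and the isomerase Ppib on few prolines of fibrillar chains. The catalytic enzymes use iron, oxygen and 2-oxoglutarate, and vitamin C keeps their iron reduced. P4ha1, P4ha2 and Plod2 are textbook targets of hypoxia-inducible factor, whose binding sites hold the letters ACGTG, with G also found in the first place.

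The windows of 250 bases before the annotated start were read for the members from a RefSeq promoter table (GRCm38.p6), which matched 8 of the 10 genes with 9 windows. Plod2 and P3h2 were not among them. ACGTG, on either strand, was found for P4ha1, P4ha2, P4hb, Plod3 and 1 of the 2 windows of P3h1, that is for 5 of 8 genes, and in 16.6% of all 32851 windows. GCGTG was found for 7 of 8 genes, all but P4ha3, and in 28.2% of windows. The first motif is also part of the E-box of other factors, and a match is a description of letters only. P4ha1 and P4ha2 are shown because their transcripts were highest in L-Pro/LIF, and Plod1 because its transcript was highest in 2i/LIF. Capitals mark matches to either motif on either strand, and all 3 windows run 5′ to 3′ along the gene.
P4ha1 (chr10:59323046-59323295, plus strand): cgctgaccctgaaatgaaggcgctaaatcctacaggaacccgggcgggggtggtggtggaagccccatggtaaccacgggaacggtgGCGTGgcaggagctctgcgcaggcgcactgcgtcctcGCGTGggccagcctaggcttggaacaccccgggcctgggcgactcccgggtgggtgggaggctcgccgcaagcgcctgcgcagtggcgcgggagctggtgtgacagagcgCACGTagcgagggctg
P4ha2 (chr11:54100674-54100923, plus strand): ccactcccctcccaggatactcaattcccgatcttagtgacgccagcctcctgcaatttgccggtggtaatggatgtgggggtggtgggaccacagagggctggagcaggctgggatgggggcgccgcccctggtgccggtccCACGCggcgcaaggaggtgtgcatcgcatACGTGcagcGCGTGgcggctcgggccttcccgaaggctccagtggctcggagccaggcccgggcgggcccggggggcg
Plod1 (chr4:147936777-147937026, minus strand): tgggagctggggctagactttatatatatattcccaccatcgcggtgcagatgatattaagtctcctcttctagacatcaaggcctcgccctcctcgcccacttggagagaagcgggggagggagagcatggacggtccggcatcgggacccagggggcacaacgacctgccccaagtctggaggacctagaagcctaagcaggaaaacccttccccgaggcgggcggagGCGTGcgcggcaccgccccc
The P4ha1 and P4ha2 windows each held 1 match to the first motif and 2 to the second, and the Plod1 window held 1 match, to the second. Of the other members highest in 2i/LIF, Crtap had 3 matches to the second motif, and P3h1 had 2 to the second in 1 window and 2 to the first in the other. Of those highest in L-Pro/LIF, P4hb had 1 match to each motif and Plod3 had 1 to the first and 3 to the second.

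By the medium of highest mean CPM, the tested members fell into a set highest in L-Pro/LIF or F/A and a set highest in 2i/LIF. P4ha1, P4ha2, P4hb, Plod2 and Plod3 had their highest mean CPM in L-Pro/LIF, and P3h2 had it in F/A. Plod1, P3h1 and Crtap shared 1 order of mean CPM, from 2i/LIF through VitC/LIF, FBS/LIF and L-Pro/LIF down to F/A. Over the 10 libraries the Pearson correlation of log2 CPM was 0.96 between P4ha2 and Plod2, 0.93 between Plod1 and Crtap and 0.92 between P3h1 and Crtap, while Plod2 and Crtap stood at -0.91. P4hb did not follow all of its set, at 0.74 with Plod3 and 0.66 with P4ha1 but 0.40 with P4ha2, 0.36 with Plod2 and 0.07 with P3h2. With Plod1, P3h1 and Crtap of the other set it stood at 0.24, 0.21 and -0.05. P4ha1 and P4ha2 stood at 0.62. These correlations describe 10 libraries that share 5 media.

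**Figure D1:**
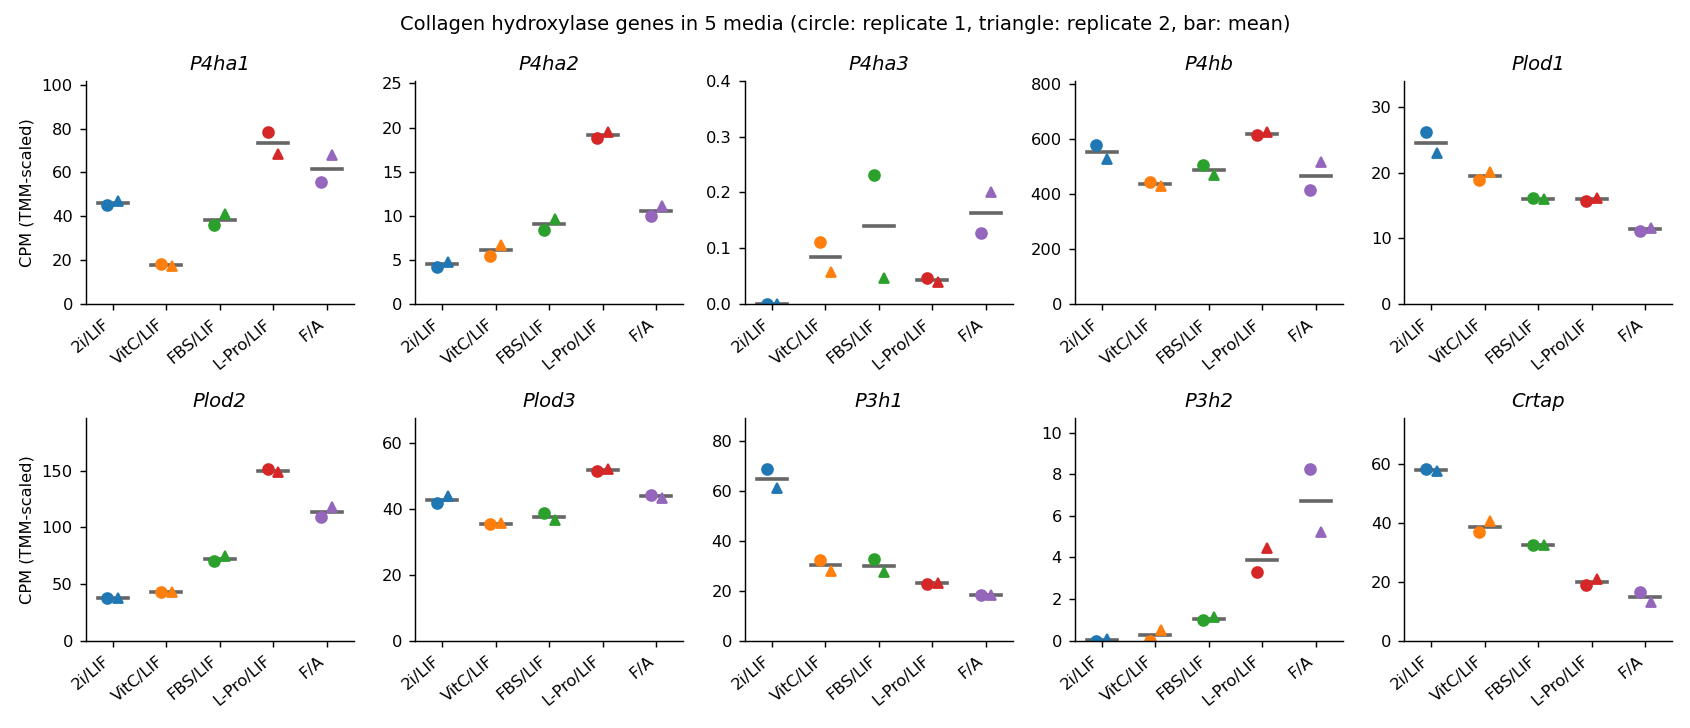
TMM-scaled CPM (y axis, linear, each panel with its own range from 0) of the 10 collagen hydroxylase genes in 5 media (x axis), with a circle for replicate 1, a triangle for replicate 2 and a bar for the mean. P4ha2 and Plod2 peak in L-Pro/LIF, at means of 19.1 and 150 CPM, while P3h1 and Crtap peak in 2i/LIF, at 64.9 and 57.9 CPM.

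P4ha1, the main catalytic subunit of prolyl 4-hydroxylase in most cells, had its lowest mean CPM with vitamin C and its highest with L-proline. Its level was 35.8 and 40.8 CPM in the 2 FBS/LIF libraries, 18.2 and 17.2 in VitC/LIF, 45.0 and 46.7 in 2i/LIF, 78.2 and 68.4 in L-Pro/LIF and 55.7 and 67.7 in F/A. Both VitC/LIF libraries lay below all others, and both L-Pro/LIF libraries lay above all others. P4ha1 rose by 0.94 (SE 0.14, edgeR adjusted p = 0.00158) in L-Pro/LIF over FBS/LIF. It fell by 1.11 (SE 0.14, adjusted p = 0.0177) in VitC/LIF, and without any 1 of the 4 libraries of that comparison the fall was 1.01 to 1.20 with an adjusted p of 0.119 to 0.207, so the call was lost. Set directly against each other, L-Pro/LIF and VitC/LIF differed by 2.05 (SE 0.14), the largest difference of a member other than P3h2 in the 6 comparisons. In 2i/LIF the difference from FBS/LIF did not pass (0.26, 95% interval -0.05 to 0.57). Nor did F/A over L-Pro/LIF (-0.25, interval -0.55 to 0.06). By FPKM these media overlapped, with 22.9 and 25.7 in F/A and 28.6 and 23.0 in L-Pro/LIF.

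P4ha2 encodes the second catalytic subunit, and it shared the high L-Pro/LIF level but not the position of 2i/LIF. It stood at 8.41 and 9.66 CPM in FBS/LIF, 5.47 and 6.71 in VitC/LIF, 4.24 and 4.76 in 2i/LIF, 18.9 and 19.4 in L-Pro/LIF and 10.0 and 11.1 in F/A. The L-Pro/LIF libraries stood apart above the other 8, and the 2i/LIF libraries lay below the other 8. P4ha2 rose by 1.08 (SE 0.18, adjusted p = 0.00297) in L-Pro/LIF and fell by 1.00 (SE 0.18, adjusted p = 0.00369) in 2i/LIF, each over FBS/LIF. It was not called in VitC/LIF (-0.57, 95% interval -0.98 to -0.16, adjusted p = 0.245) or in F/A (0.23, interval -0.18 to 0.64). Since the comparisons with FBS/LIF share its 2 libraries, they are not independent of each other.

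P4ha3, the third alpha subunit, was close to undetected, with 6 estimated counts over the 2 FBS/LIF libraries, 3 in VitC/LIF, 5 in F/A and 2 in L-Pro/LIF. In 2i/LIF it had 0 counts, which allows up to 0.0817 CPM over both libraries. No fold is given for it in this experiment.

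P4hb, the beta subunit, was by FPKM the highest of the members in every medium. Its level was 505 and 469 CPM in FBS/LIF, 443 and 427 in VitC/LIF, 577 and 528 in 2i/LIF, 616 and 624 in L-Pro/LIF and 413 and 516 in F/A. The L-Pro/LIF libraries were the highest, and the 2 F/A libraries spanned all of VitC/LIF and FBS/LIF. The difference of L-Pro/LIF from FBS/LIF did not pass the threshold (0.35, SE 0.13, adjusted p = 0.0964), while L-Pro/LIF over VitC/LIF did (0.51, SE 0.13, adjusted p = 0.0203). The latter call was lost without any 1 of its 4 libraries (adjusted p 0.103 to 0.134). In F/A over FBS/LIF P4hb was at -0.07, at 0.0766 without F/A replicate 1 and at -0.33 with an adjusted p of 0.0349 without F/A replicate 2. In F/A over L-Pro/LIF it was at -0.42 and did not pass (adjusted p = 0.0566), but passed in DESeq2 (adjusted p = 0.0142) and without F/A replicate 2 (edgeR adjusted p = 0.00342).

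The make-up of the alpha subunits, as shares of their summed FPKM, differed between media. P4ha1 contributed 87.5% ± 0.028 (SD, n = 2) in 2i/LIF, 79.2% ± 2.0 in F/A, 70.7% ± 4.8 in FBS/LIF, 57.9% ± 8.7 in VitC/LIF and 69.5% ± 4.9 in L-Pro/LIF, and P4ha2 nearly all of the rest. The summed alpha FPKM was 30.7 ± 1.7 in F/A and 37.0 ± 3.1 in L-Pro/LIF, against 18.5 ± 3.2 in FBS/LIF, 17.4 ± 0.34 in 2i/LIF and 10.4 ± 1.9 in VitC/LIF (SD, n = 2). The alpha sum was therefore lowest with vitamin C and highest with L-proline. FPKM carries no TMM scaling, so sums of F/A against other media, here and for the Plod genes, depend on the scale. P4hb in F/A was above FBS/LIF by FPKM (195 against 178) but below it by CPM (465 against 487). The effective length that the files give P4ha2 ran from 930 to 2050 bases between libraries, with 5.62 and 3.21 FPKM in the 2 VitC/LIF libraries, so its share is the least certain there.

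The ratio of P4hb to summed alpha FPKM was 6.28 ± 0.30 in L-Pro/LIF, 6.35 ± 0.36 in F/A, 9.78 ± 2.1 in FBS/LIF, 11.3 ± 0.99 in 2i/LIF and 15.5 ± 2.5 in VitC/LIF (SD, n = 2). The L-Pro/LIF and F/A libraries lay below all 6 others, from 6.06 to 6.61, and both VitC/LIF libraries, at 13.7 and 17.3, lay above them. This compares RNA, not protein, and P4hb has partners other than these subunits.

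**Figure D2:**
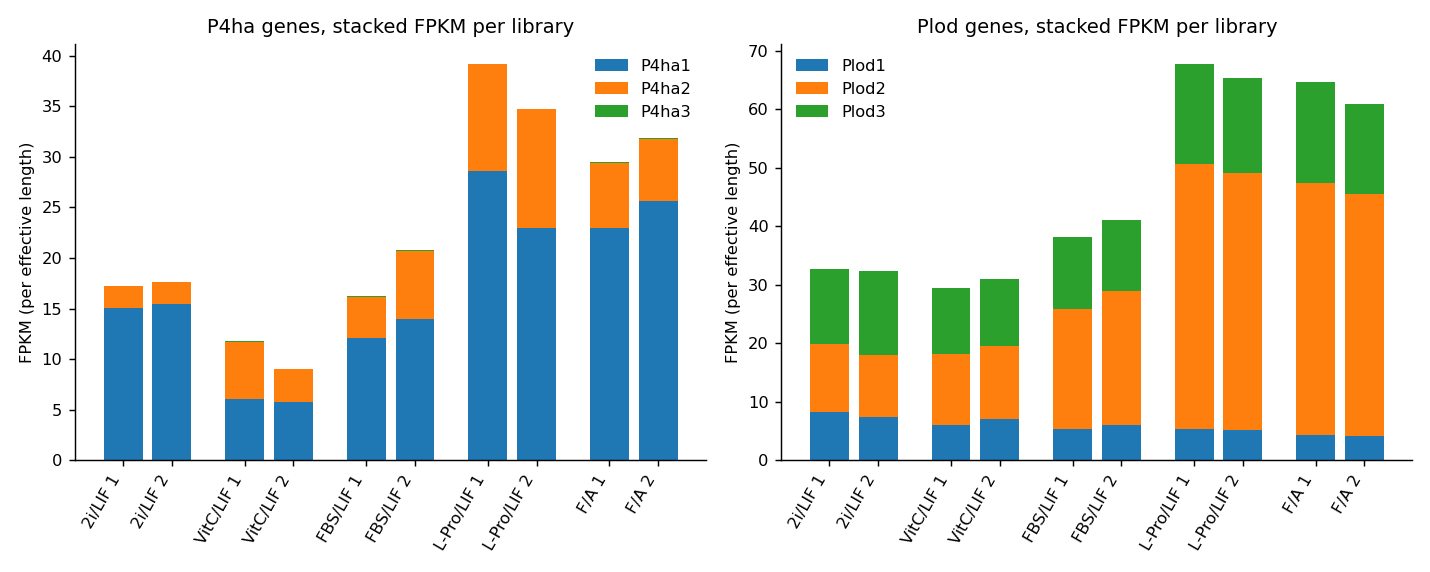
Stacked FPKM (y axis, fragments scaled by effective length and library total, without TMM scaling) of the 3 P4ha genes (left) and the 3 Plod genes (right) in each of the 10 libraries (x axis, medium and replicate). Summed Plod FPKM reaches 62.8 in F/A and 66.6 in L-Pro/LIF on average, with Plod2 as the largest block there, against 30.2 in VitC/LIF.

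Plod2, the lysyl hydroxylase of the non-helical ends of collagen, had the widest range of the lysyl hydroxylases. Its level was 70.3 and 74.7 CPM in FBS/LIF, 42.7 and 42.5 in VitC/LIF, 37.6 and 37.6 in 2i/LIF, 151 and 148 in L-Pro/LIF and 109 and 118 in F/A. No medium overlapped another, in the order L-Pro/LIF, F/A, FBS/LIF, VitC/LIF and 2i/LIF. Plod2 rose by 1.05 (SE 0.094, adjusted p = 0.000143) in L-Pro/LIF and by 0.65 (SE 0.094, adjusted p = 0.000877) in F/A, and fell by 0.95 (SE 0.094, adjusted p = 0.000135) in 2i/LIF, each over FBS/LIF. In VitC/LIF it fell by 0.77 (SE 0.094, adjusted p = 0.0177), a call that was lost without any 1 of the 4 libraries, at -0.81 to -0.72 with an adjusted p of 0.141 to 0.225.

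Plod1, which hydroxylates lysines within the helix, ran the other way. It stood at 16.14 and 15.98 CPM in FBS/LIF, 18.9 and 20.1 in VitC/LIF, 26.2 and 23.1 in 2i/LIF, 15.7 and 16.2 in L-Pro/LIF and 11.2 and 11.7 in F/A. The 2i/LIF libraries were the highest and the F/A libraries the lowest, while FBS/LIF and L-Pro/LIF overlapped. Plod1 rose by 0.62 (SE 0.12, adjusted p = 0.00568) in 2i/LIF and fell by 0.49 (SE 0.13, adjusted p = 0.0133) in F/A over FBS/LIF. The 2i/LIF call was lost without 2i/LIF replicate 1 (adjusted p = 0.0621), and the F/A call without FBS/LIF replicate 1 (adjusted p = 0.0642). The difference between L-Pro/LIF and FBS/LIF was -0.01 (interval -0.29 to 0.27), a value whose sign turned without replicate 1 of either medium (0.000299 and 0.00127).

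Plod3, which also transfers sugars to hydroxylysine, changed least of the 3. Its level ran from 35.3 and 35.5 CPM in VitC/LIF to 51.2 and 51.9 in L-Pro/LIF, with 38.6 and 36.5 in FBS/LIF, 41.6 and 43.7 in 2i/LIF and 44.3 and 43.2 in F/A. The L-Pro/LIF libraries lay above all others. Plod3 rose by 0.46 (SE 0.098, adjusted p = 0.0104) in L-Pro/LIF over FBS/LIF, and this call was lost without any 1 of the 4 libraries (adjusted p 0.0503 to 0.0783). Over VitC/LIF the rise was 0.54 (SE 0.098, adjusted p = 0.00363).

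As shares of summed Plod FPKM, Plod2 held 67.3% ± 0.89 in F/A, 67.1% ± 0.20 in L-Pro/LIF, 54.8% ± 1.6 in FBS/LIF, 40.9% ± 1.1 in VitC/LIF and 33.9% ± 2.0 in 2i/LIF (SD, n = 2). In 2i/LIF Plod3 held the largest share, 41.9% ± 3.5. Plod1 held 24.2% ± 1.6 there, against 6.68% ± 0.20 in F/A. The lysyl hydroxylase transcripts thus differed between media in make-up as well as in sum.

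P3h1, the catalytic prolyl 3-hydroxylase of fibrillar collagen, was far higher in 2i/LIF than elsewhere. Its level was 68.6 and 61.1 CPM there, 32.5 and 27.5 in FBS/LIF, 32.3 and 27.9 in VitC/LIF, 22.8 and 23.2 in L-Pro/LIF and 18.4 and 18.1 in F/A. FBS/LIF and VitC/LIF overlapped, and the other 3 media stood apart. P3h1 rose by 1.11 (SE 0.13, adjusted p = 0.000324) in 2i/LIF and fell by 0.72 (SE 0.13, adjusted p = 0.00294) in F/A over FBS/LIF. The L-Pro/LIF difference did not pass (-0.39, interval -0.68 to -0.09, adjusted p = 0.0626), and VitC/LIF gave 0.00 (interval -0.29 to 0.30).

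Crtap, the helper protein without which the P3h1 complex is not stable, had nearly the same pattern. It stood at 58.1 and 57.6 CPM in 2i/LIF, 36.7 and 40.5 in VitC/LIF, 32.5 and 32.5 in FBS/LIF, 18.7 and 20.9 in L-Pro/LIF and 16.4 and 13.1 in F/A, with no overlap between any 2 media. Crtap rose by 0.83 (SE 0.13, adjusted p = 0.00166) in 2i/LIF, and fell by 0.72 (SE 0.13, adjusted p = 0.0051) in L-Pro/LIF and by 1.15 (SE 0.14, adjusted p = 0.000287) in F/A, each over FBS/LIF. Its difference in VitC/LIF did not pass (0.25, interval -0.05 to 0.54).

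P3h2, a prolyl 3-hydroxylase known for acting on basement membrane collagen IV, was scarce and ran opposite to P3h1. It had 45 estimated counts over the 2 FBS/LIF libraries, 9 in VitC/LIF, 1 in 2i/LIF, 169 in F/A and 185 in L-Pro/LIF. The libraries stood at 0.971 and 1.12 CPM in FBS/LIF, 0 and 0.521 in VitC/LIF, 0 and 0.056 in 2i/LIF, 3.30 and 4.47 in L-Pro/LIF and 8.24 and 5.20 in F/A. F/A and L-Pro/LIF lay above the other media. P3h2 rose by 2.66 (SE 0.72, adjusted p = 0.0168) in F/A over FBS/LIF and by 3.89 (SE 0.85, adjusted p = 0.00872) in L-Pro/LIF over VitC/LIF, and was called lower in 2i/LIF (adjusted p = 0.0167). In L-Pro/LIF over FBS/LIF it did not pass in edgeR (1.89, SE 0.71, adjusted p = 0.0894) but did in DESeq2 (adjusted p = 0.0184). With 1 count in 2i/LIF, the ratio to FBS/LIF was 0.026 (exact 95% counting interval 0.000644 to 0.152).

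Some P3h2 values and calls depended on single libraries. All 9 VitC/LIF counts lay in replicate 2, so the rise of L-Pro/LIF over VitC/LIF was 2.88 without VitC/LIF replicate 1 (adjusted p = 0.0152) and 9.23 without VitC/LIF replicate 2 (adjusted p = 0.00191), the latter a fitted value against 0 counts that is no bound. In F/A the call was lost without FBS/LIF replicate 1, FBS/LIF replicate 2 or F/A replicate 1 (adjusted p 0.0659 to 0.101). In 2i/LIF it was lost without FBS/LIF replicate 2 or either 2i/LIF library (adjusted p 0.0545 to 0.108). Fragments that hit only this gene made up 65.5% to 76.9% of its estimate where it had at least 50 counts, lower than for any other member tested.

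**Figure D3:**
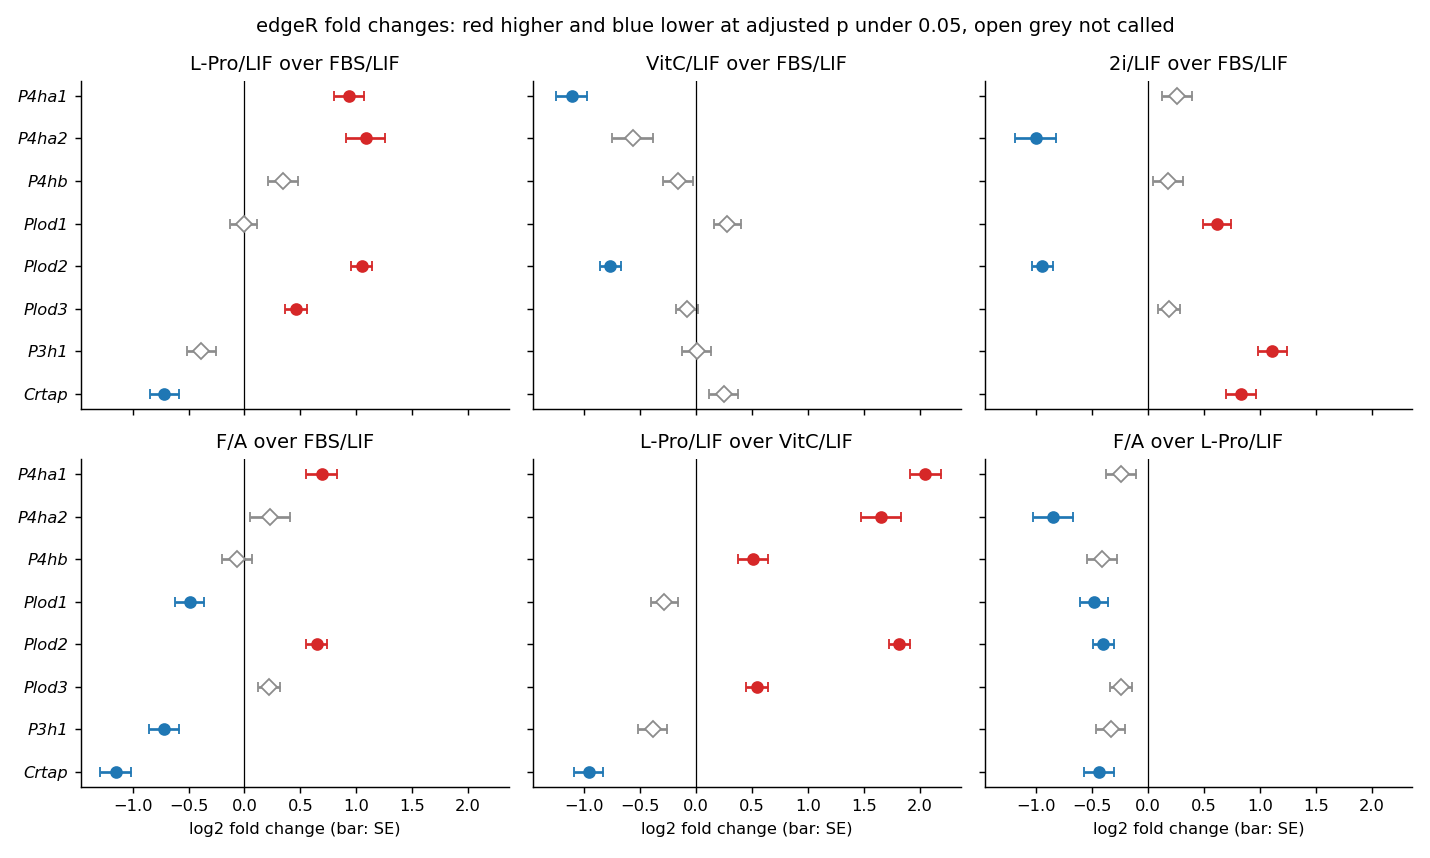
Log2 fold changes (x axis, bars are SE) of 8 members (y axis) in the 6 comparisons of media, from edgeR. Filled red points are higher and filled blue points lower at an adjusted p under 0.05, and open grey points did not pass. P4ha1 and Plod2 are red in L-Pro/LIF and blue in VitC/LIF over FBS/LIF, and Crtap is blue in every comparison except 2i/LIF, where it is red, and VitC/LIF, where it did not pass. P4ha3 was not tested and P3h2 is left out for its low counts.

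Counted by comparison, L-Pro/LIF over FBS/LIF called 5 of the 9 tested members (24.0% of all genes), 4 higher (13.7% of all genes) and Crtap lower (10.3%). Their median log2 fold change was 0.46, against 0.01 over all genes, and the libraries did not overlap for 8 of 9 members (64.8% of all genes). Without any 1 of the 4 libraries 4 members were called, Plod3 being lost. VitC/LIF over FBS/LIF called 2 of 9 (0.674% of all genes), both lower (0.312%) and none higher (0.362%), while 8 members had no overlap (42.9% of all genes). With edgeR 3 members, all lower, had an unadjusted p under 0.05, and DESeq2 called 2. Without any 1 of the 4 libraries edgeR called 0 members, with 6 to 12 genes called in all, against 108.

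In 2i/LIF over FBS/LIF 6 of 9 members were called (30.3% of all genes), with P3h1, Crtap and Plod1 higher (12.4%) and P4ha2, Plod2 and P3h2 lower (17.9%). All 9 had no overlap (68.1% of all genes). The count was 4 without 2i/LIF replicate 1, the lowest of the left-out libraries. F/A over FBS/LIF also called 6 (46.4% of all genes), with P4ha1, Plod2 and P3h2 higher (24.4%) and Plod1, P3h1 and Crtap lower (22.0%), and 8 had no overlap (72.0%). The share called there is near the background of all genes. L-Pro/LIF over VitC/LIF called 7 of 9 (29.8% of all genes), 6 higher (16.8%) and Crtap lower (13.0%), with a median of 0.54 against 0.02 and no overlap for all 9 (69.3%). With the replicate number as a block P3h1 also passed there as lower (-0.38, adjusted p = 0.049).

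F/A over L-Pro/LIF called 4 of 9 (22.0% of all genes), all lower (10.9%) and none higher (11.1%), and all 9 had no overlap (63.5%). P4ha2 fell by 0.85 (SE 0.18, adjusted p = 0.0145), Plod1 by 0.48 (SE 0.13, adjusted p = 0.0303), Plod2 by 0.40 (SE 0.093, adjusted p = 0.0204) and Crtap by 0.44 (SE 0.14, adjusted p = 0.05, just under the threshold). With the replicate number as a block the Crtap call was lost (adjusted p = 0.0689). The count was 0 without L-Pro/LIF replicate 1 or 2, 1 without F/A replicate 1 and 5 without F/A replicate 2. At an unadjusted p under 0.05 it was 7, all lower, and with DESeq2 it was 5.

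The other genes of collagen handling were called in both directions. Of 21 tested genes for folding, trimming and cross-linking collagen, 8 rose and 3 fell in L-Pro/LIF over FBS/LIF, where 13.7% of all genes were higher and 10.3% lower, with a median of 0.51. Lox, a cross-linking oxidase that acts on lysine and hydroxylysine, rose by 2.85 (SE 0.58, 1.14 to 8.27 CPM), Bmp1, a procollagen protease, by 2.23 (SE 0.23, 6.24 to 29.2 CPM), and Adamts14, which trims procollagen, fell by 3.07 (SE 0.32, 11.1 to 1.33 CPM). Ppib, the isomerase of the P3h1 complex, stood at 191 against 171 CPM and did not pass. Serpinh1, a collagen chaperone picked after its values were seen, rose by 1.28 to 163 from 67.5 CPM.

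In 2i/LIF 3 of these 21 genes rose and 8 fell over FBS/LIF, where 12.4% of all genes were higher and 17.9% lower. Fkbp10, an isomerase that works with lysyl hydroxylase, was lower there by 2.81 (SE 0.14, 22.1 to 3.15 CPM). F/A over FBS/LIF gave 8 higher and 4 lower, mixed in direction and near the background, where 46.4% of all genes were called. L-Pro/LIF over VitC/LIF gave 8 higher and 3 lower, and F/A over L-Pro/LIF gave 4 lower, of which P3h4, encoding a binding partner of P3h3 and Plod1, fell by 1.19 (SE 0.20). In VitC/LIF over FBS/LIF none passed in edgeR or in DESeq2, with 2 at an unadjusted p under 0.05. The 4 lower calls of F/A over L-Pro/LIF became 1 without L-Pro/LIF replicate 1, and the 3 of L-Pro/LIF over FBS/LIF stayed at 2 or 3.

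Collagen chains, the substrate, gave 13 higher and 3 lower of 23 tested in L-Pro/LIF over FBS/LIF (median 1.23), and 14 higher and 1 lower in F/A (median 1.43; 2 lower without F/A replicate 2). Both basement membrane chains Col4a5 and Col4a6 rose in L-Pro/LIF, by 3.41 (SE 0.32) and 3.61 (SE 0.53). In 2i/LIF 10 fell and the median was -0.82, while none was higher in edgeR or DESeq2, also at an unadjusted p under 0.05. In VitC/LIF edgeR called none of the 23, with 7 at an unadjusted p under 0.05 and 3 in DESeq2, and Col4a1 stood at 36.0 against 70.0 CPM (-0.96, adjusted p = 0.129). Against VitC/LIF, L-Pro/LIF gave 13 higher and 1 lower (16.8% and 13.0% of all genes), and F/A over L-Pro/LIF 3 and 3 (11.1% and 10.9%). As libraries were left out, the 13 of L-Pro/LIF over FBS/LIF ranged from 8 to 11, with 8 without FBS/LIF replicate 1, the 3 lower became 1 without any 1 library, and the 10 of 2i/LIF ranged from 6 to 8, with 6 without 2i/LIF replicate 2.

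The hypoxia response genes include glycolytic enzymes and glucose carriers. Those called over FBS/LIF were lower in VitC/LIF and mostly higher in L-Pro/LIF, while most of the list did not pass in either. In VitC/LIF over FBS/LIF 4 of 23 fell, where 0.312% of all genes were lower. The list median was -0.53, against -0.01 over all genes. Ldha, the lactate dehydrogenase subunit gene, fell by 1.05 (SE 0.15, 1229 to 595 CPM), Bnip3 by 1.33 (SE 0.20) and the glucose carrier gene Slc2a1 by 0.86 (SE 0.11). All 4 calls were lost without any 1 of the 4 libraries, while 12 genes of the list were lower at an unadjusted p under 0.05 and DESeq2 called 7.

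In L-Pro/LIF over FBS/LIF 7 of the 23 hypoxia genes rose and 1 fell, where 13.7% of all genes were higher and 10.3% lower. Over VitC/LIF 14 rose and 1 fell (median 1.14), where 16.8% of all genes were higher and 13.0% lower. Egln1, a prolyl hydroxylase of the hypoxia-inducible factor itself, rose by 1.58 (SE 0.17, 14.0 to 41.8 CPM) in L-Pro/LIF over FBS/LIF. In 2i/LIF the list was split, with 7 higher and 6 lower, of which the 7 became 2 when any 1 of the 4 libraries was left out. F/A over FBS/LIF gave 4 and 4, the lower count reaching 10 without F/A replicate 2 and the higher count 6 without F/A replicate 1, and F/A over L-Pro/LIF gave 3 higher and 9 lower, which became 1 and 4 without L-Pro/LIF replicate 1. Whether the level of this list has a part in that of P4ha1, P4ha2 or Plod2 was not tested.

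The calls among genes of general folding in the endoplasmic reticulum, where P4hb also works, depended on the tool and the library. Of 19 tested, 1 rose and 1 fell in L-Pro/LIF over FBS/LIF (13.7% and 10.3% of all genes), with Dnajc3 at 0.54 (SE 0.096) and Xbp1 at -0.63 (SE 0.14). There 7 were higher at an unadjusted p under 0.05 in edgeR, and DESeq2 called 4 higher and 1 lower. The higher count was 0 without L-Pro/LIF replicate 1 and the lower 0 without L-Pro/LIF replicate 2 or FBS/LIF replicate 1. F/A over FBS/LIF gave 4 higher and 1 lower (24.4% and 22.0% of all genes), with Hyou1 at 0.94 (SE 0.15). The 4 became 2 without either FBS/LIF library and 7 without F/A replicate 1, the 1 becoming 6 without F/A replicate 2 and 2 in DESeq2. In 2i/LIF 3 fell, with 0 without FBS/LIF replicate 1 or 2i/LIF replicate 2, 1 without 2i/LIF replicate 1 and 2 without FBS/LIF replicate 2, and L-Pro/LIF over VitC/LIF gave 4 higher and 1 lower, of which the 4 became 1 without any 1 library and 7 in DESeq2. F/A over L-Pro/LIF gave 1 higher, which was 0 without either L-Pro/LIF library, and 0 lower, with 9 lower without F/A replicate 2 and 3 in DESeq2. VitC/LIF over FBS/LIF had none called by edgeR, 1 at an unadjusted p under 0.05 and 1 in DESeq2.

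Among 14 other 2-oxoglutarate hydroxylases, which share the cofactors of the collagen enzymes, 1 rose in L-Pro/LIF over FBS/LIF, namely Egln1. There 13.7% of all genes were higher and 10.3% lower, against 24.4% and 22.0% in F/A and 12.4% and 17.9% in 2i/LIF. In 2i/LIF 3 rose and 3 fell, led by Phyh, a peroxisomal hydroxylase, with 59.6 against 16.8 CPM (1.83, SE 0.12), and without 2i/LIF replicate 1 there was 1 in each direction, with 1 higher also without replicate 2 of either medium. F/A over FBS/LIF gave 2 higher and 3 lower, the 3 becoming 0 without F/A replicate 1 or FBS/LIF replicate 2 and 5 without F/A replicate 2. L-Pro/LIF over VitC/LIF gave 5 higher and 2 lower, with 3 higher without either replicate 2 and 1 lower without any 1 library. F/A over L-Pro/LIF gave 1 and 1, with 0 and 0 without either L-Pro/LIF library or F/A replicate 1 and 5 lower without F/A replicate 2. In VitC/LIF edgeR called none, with 5 at an unadjusted p under 0.05 and 3 in DESeq2. Asph, an aspartyl hydroxylase, stood at 44.4 CPM there against 71.9 (-0.70, adjusted p = 0.0981).

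Vitamin C transport and synthesis genes were tested for 4 of 6 listed. Slc23a1, a sodium-coupled vitamin C carrier, fell by 4.54 (SE 0.24, 20.4 to 0.867 CPM) in 2i/LIF, by 3.40 (SE 0.22, to 1.93 CPM) in F/A and by 1.71 (SE 0.20, to 6.25 CPM) in L-Pro/LIF, each over FBS/LIF. The broader carrier gene Slc23a2 rose in 2i/LIF (0.37, SE 0.10) and F/A (0.67, SE 0.10), and Gsto1, which can reduce dehydroascorbate, rose in 2i/LIF (0.72, SE 0.13) and fell in F/A (-0.52, SE 0.13). Of the 2 higher calls in 2i/LIF 1 was left without any 1 of the 4 libraries, and of the 2 lower calls in F/A 1 was left without FBS/LIF replicate 1. In VitC/LIF over FBS/LIF edgeR and DESeq2 called none of the 4, and 1 was lower at an unadjusted p under 0.05. Slc23a1 was also lower in L-Pro/LIF than in VitC/LIF, and F/A over L-Pro/LIF gave 1 higher and 3 lower, with 0 and 1 without any library but F/A replicate 2.

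Markers of other cells that make collagen moved in the same comparisons. Over FBS/LIF, 24.4% of all genes were higher in F/A, 13.7% in L-Pro/LIF and 12.4% in 2i/LIF, and 17.9% were lower in 2i/LIF. Of 13 tested fibroblast markers 11 rose in F/A and 10 in L-Pro/LIF over FBS/LIF, while 2i/LIF gave 2 higher and 6 lower, and the summed CPM of the 16 listed was 64.5 to 66.2 in FBS/LIF, 74.9 to 75.0 in VitC/LIF, 205 to 209 in 2i/LIF, 112 to 130 in L-Pro/LIF and 479 to 488 in F/A. Vim, which is not restricted to fibroblasts, made up most of it, with 426 CPM in F/A and 199 in 2i/LIF. Of the list, Lum, Postn and Fap were at or below 0.24 CPM in every medium, while others were higher in L-Pro/LIF or F/A. From FBS/LIF to L-Pro/LIF mean CPM went from 0.371 to 3.08 for Dcn, 0.466 to 2.86 for Col3a1, 0.815 to 3.99 for Col1a1 and 3.02 to 8.39 for Twist1. In F/A Pdgfra stood at 9.42 CPM, against 1.82 in FBS/LIF, and Prrx1 at 1.69, against 0. The part of cells with these markers in the levels of the hydroxylases was not tested. The 10 of L-Pro/LIF became 6 without L-Pro/LIF replicate 1 and 4 without FBS/LIF replicate 1, the 11 of F/A became 7 without FBS/LIF replicate 1, and the 6 lower of 2i/LIF became 2 without 2i/LIF replicate 2. Against VitC/LIF, L-Pro/LIF gave 7 higher and F/A over L-Pro/LIF 3 (1 without any library but F/A replicate 2), and VitC/LIF over FBS/LIF had none called by edgeR or DESeq2 and 6 at an unadjusted p under 0.05.

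Of 18 markers of primitive and parietal endoderm, a lineage that secretes collagen IV, 5 rose and 1 fell in L-Pro/LIF, 13 rose and 1 fell in F/A, and 1 rose and 9 fell in 2i/LIF, each over FBS/LIF. Their summed CPM was 454 to 624 in FBS/LIF, 382 to 454 in VitC/LIF, 432 to 436 in 2i/LIF, 703 to 818 in L-Pro/LIF and 905 to 1033 in F/A. The regulator Gata6 went from 1.00 CPM with FBS/LIF through 0.749 with L-Pro/LIF to 8.07 with F/A. Sox17, another regulator, went from 0.793 through 0.73 to 7.9 CPM over the same media. Between FBS/LIF and F/A, Foxa2 went from 0.584 to 22.0 CPM but Sox7 from 0.513 to 0.329. Thbd went from 0.910 to 0.981 CPM there, and Srgn from 4.64 to 5.31. Whether these levels come from primitive and parietal endoderm or from another lineage was not tested. The 5 of L-Pro/LIF became 2 without FBS/LIF replicate 1 or either L-Pro/LIF library, and the 9 of 2i/LIF became 5 without either replicate 2. L-Pro/LIF over VitC/LIF gave 5 higher and 1 lower and F/A over L-Pro/LIF 8 higher (2 without either L-Pro/LIF library), while VitC/LIF over FBS/LIF had none called by edgeR, 5 at an unadjusted p under 0.05 and 2 in DESeq2. The list shares Col4a1, Col4a2 and Sparc with the collagen lists and Pdgfra with the fibroblast list. In these bulk libraries fewer cells of a type and less RNA per cell cannot be told apart, and the part of such cells in the levels of the hydroxylases was not tested.

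All 10 pluripotency markers, as a check of the labelled cell type, were tested. Pou5f1 and Sox2, core factors of pluripotency, were not called in VitC/LIF or 2i/LIF over FBS/LIF. From FBS/LIF through L-Pro/LIF to F/A, mean CPM went from 882 to 563 to 485 for Pou5f1. For Sox2 it went from 665 to 277 to 60.6 over the same media. Zfp42 went from 451 to 53.8 to 1.65 CPM, and Esrrb from 163 to 6.86 to 1.21. In L-Pro/LIF 4 of the 10 rose and 6 fell, in 2i/LIF 5 and 3 (3 higher without either FBS/LIF replicate 1 or 2i/LIF replicate 2), and in F/A 3 and 6, each over FBS/LIF. The shares of all genes higher and lower were 13.7% and 10.3% in L-Pro/LIF, 12.4% and 17.9% in 2i/LIF and 24.4% and 22.0% in F/A. T, an early mesoderm gene, stood at 327 CPM in F/A and 43.3 in L-Pro/LIF against 0.722 in FBS/LIF. Against VitC/LIF, L-Pro/LIF gave 4 and 5, F/A over L-Pro/LIF 2 and 5 (1 higher without any library but F/A replicate 2), and VitC/LIF none in edgeR, 3 at an unadjusted p under 0.05 and 1 in DESeq2.

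The genes most like each member over the 10 libraries were taken by Pearson correlation of log2 CPM among genes with a mean of at least 16 CPM. They share the pattern of their member by this choice and are a description only. P4ha1 was most like Narf (0.98), Egln1 (0.93) and Fam8a1 (0.93), and P4hb most like Higd1a (0.96), Sin3b (0.95) and Plin2 (0.95). P4ha2 came with Serinc5 (0.98), Errfi1 (0.97) and H2-Q4 (0.97), Plod2 with Sall2 (0.99), Kctd12b (0.99) and Tubb6 (0.98), and Plod3 with Efr3a (0.97), Rhob (0.96) and Gng2 (0.96). Crtap came with Tbx3, Tfcp2l1 and Gcnt2 (0.99 each), the first pair being transcription factors of the naive state. P3h1 was most like Tex264, Ckb (both 0.99) and Pcsk6 (0.98), Plod1 had Pias4 and Ctsa among its closest genes (0.98 each), and P3h2 was most like Repin1, Smurf2 and the collagen IV gene Col4a1 (0.98 each).

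In the second experiment each condition was 1 library, so no test was possible, differences have no replicate check, and intervals cover counting error only. A member was counted as past the fold at a log2 ratio of at least 1 in either direction, with at least 10 counts in the higher library. For L-proline on day 5 over day 0, 2 of 9 members with enough counts were past it (39.5% of all genes), both higher (21.7%) and none lower (17.8%). F/A on day 3 gave 4 of 10 (35.7% of all genes), 3 higher (20.6%) and 1 lower (15.1%). F/A on day 5 gave 4 of 9 (41.3%), 3 higher (21.9%) and 1 lower (19.4%). In neither was the members' share far from that of all genes. The comparisons with day 0 share that library.

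Plod2 was lowest on day 0 and higher in the other 3 libraries, with 58.6 CPM on day 0, 140 with L-proline, 107 on day 3 of F/A and 139 on day 5. Its log2 ratio over day 0 was 1.26 with L-proline and 1.24 in F/A on day 5. P3h2 had 1 count on day 0, against 224 with L-proline, 140 on day 3 and 228 on day 5 of F/A. Those are ratios of 194 (exact 95% counting interval 34.4 to 7692), 129 (22.8 to 5129) and 231 (41.1 to 9182).

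With L-proline P4ha1 did not follow the first experiment, while with F/A it was higher in both. It stood at 26.6 CPM on day 0 and at 17.0 with L-proline, a log2 ratio of -0.65 (counting interval -0.80 to -0.51), whereas in the first experiment the L-Pro/LIF libraries stood at 78.2 and 68.4 CPM and VitC/LIF at 18.2 and 17.2. In F/A it was 40.7 CPM on day 3 and 59.5 on day 5, or 1.16 over day 0 on day 5. In the first experiment its mean was 61.7 CPM in F/A against 38.3 in FBS/LIF. The 5-day libraries thus differed by -1.81 for L-proline over F/A, past the fold, and P4ha1 was the 1 member of 9 past it (18.8% of all genes, 8.00% lower and 10.8% higher). The hypoxia list was mixed. Of its 23 genes 4 were higher and 6 lower by the fold for L-proline over day 0 (median -0.26), 4 and 2 for F/A on day 3 (median -0.04, with P4ha1 at 0.61) and 6 and 4 for F/A on day 5 (median 0.31). For L-proline over F/A on day 5 none was higher and 5 were lower (median -0.54). The experiments differ in vitamin C dose, extraction and cell population, and a bFGF amount is given only for the first. The part of these in the difference was not tested.

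P4ha2, at 8.62 CPM on day 0, was 12.4 with L-proline, 19.5 on day 3 and 13.3 on day 5 of F/A. P4ha3 had 7, 6, 46 and 8 counts in the same order, so that its day 3 level of 1.26 CPM (interval 0.919 to 1.67) was above the other 3. It was the 1 member past the fold between day 5 and day 3 of F/A, at -2.31 (interval -3.39 to -1.23), of 10 members (25.1% of all genes, 14.3% lower and 10.8% higher), and none was past it at 50 counts or more. P4hb moved least, from 437 CPM on day 0 to 614 with L-proline and 553 and 554 in F/A.

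Plod3 was 45.1 CPM on day 0, 87.4 with L-proline, 48.8 on day 3 and 66.4 on day 5 of F/A. Plod1, P3h1 and Crtap were all highest on day 0. Plod1 stood at 34.9, 20.4, 11.5 and 19.3 CPM, P3h1 at 33.5, 25.2, 21.2 and 19.9 and Crtap at 65.3, 46.1, 38.5 and 23.3 in the same order. Plod1 was past the fold on day 3 (-1.60) and Crtap on day 5 (-1.49) of F/A.

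**Figure D4:**
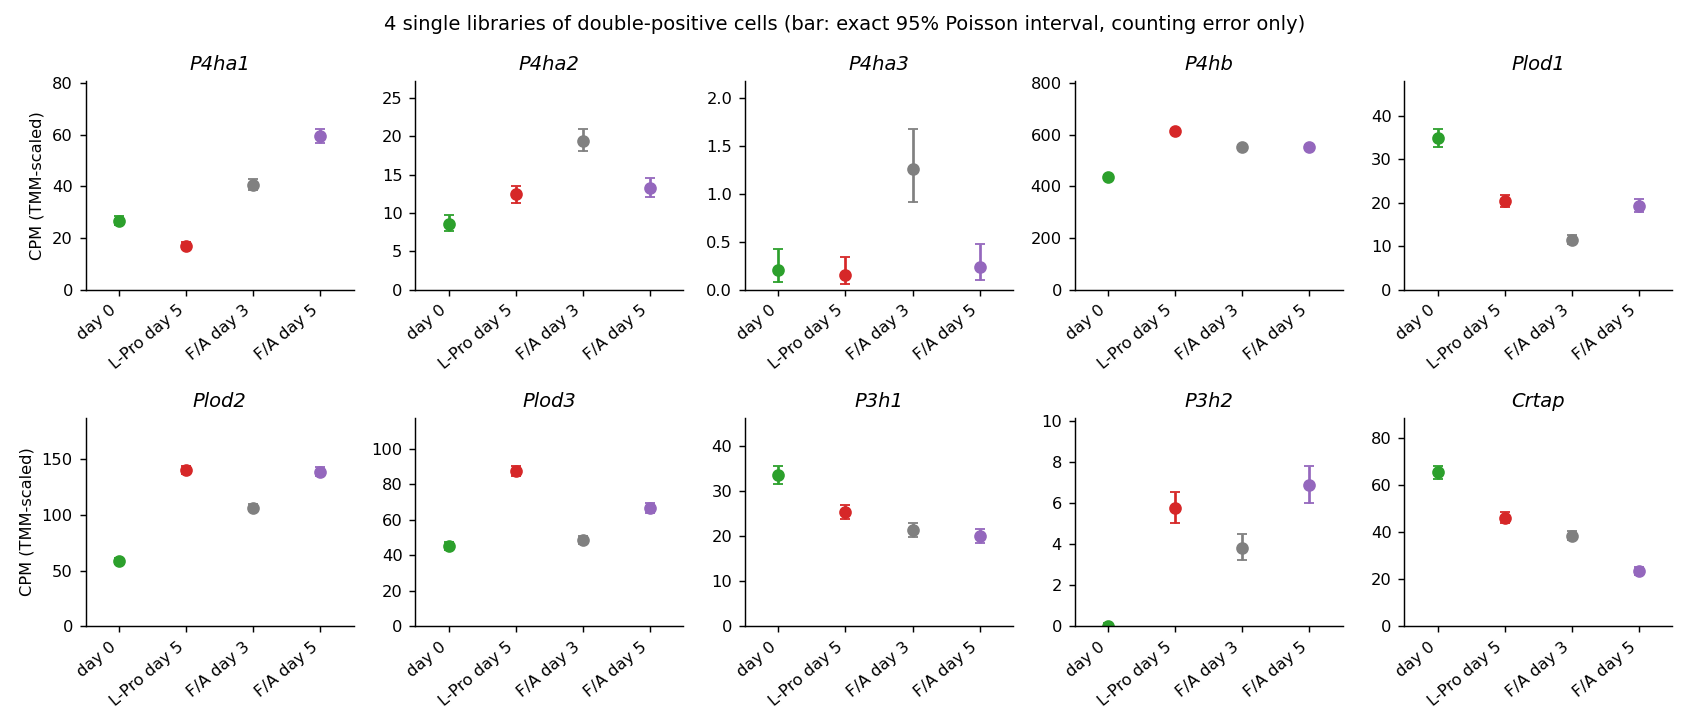
TMM-scaled CPM (y axis, linear from 0, each panel with its own range) of the 10 genes in the 4 single libraries (x axis), with exact 95% Poisson intervals that cover counting error only. P4ha1 is lowest with L-proline, at 17.0 CPM, while Plod2 and Plod3 are highest there, at 140 and 87.4 CPM.

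Collagen chains and their processing genes had more members higher than lower by the fold in each of the 3 libraries against day 0, as did all genes. With L-proline 21.7% of all genes were higher and 17.8% lower. These shares were 20.6% and 15.1% in F/A on day 3 and 21.9% and 19.4% on day 5. With L-proline 16 of 26 measured chains were higher by the fold and 5 lower, and 11 of 20 processing genes were higher and 2 lower, with medians of 1.81 and 1.04 against 0.02 over all genes. In F/A on day 3 the chains gave 11 higher and 8 lower of 25 and the processing genes 7 and 4 of 21, with a median of 0.14 for the latter. In F/A on day 5 the chains gave 14 higher and 8 lower of 25 and the processing genes 8 and 3 of 20. The endoderm markers gave 9 higher and 2 lower of 16 with L-proline, 7 and 3 in F/A on day 3 and 11 higher and 3 lower in F/A on day 5, and their part was not tested.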

How the data were processed

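For the first experiment the authors deposited gene-level mmseq output: per the file headers and values, a natural log of FPKM, counts of fragments hitting only that gene, and an effective length. For the second they deposited raw counts per Ensembl gene. The submitters' processing notes name CASAVA, TopHat2 2.0.13 and HTSeq 0.6.1p1, for the first experiment also Bowtie and DESeq without roles, and the builds mm9 and NCBIM37. The strand setting is not given in the sources used here. The deposited tables of the whole series, with 8 value columns, were not used.

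Estimated counts were computed as FPKM times effective length times mapped fragments, rounded, and set to 0 where no fragment was observed. The plan had assumed counts, so these stand in for them. Symbols came from GENCODE vM21, matching 32919 of 37991 identifiers in the first experiment and 32897 of 37620 in the second. Genes passing filterByExpr were tested with edgeR 4.0.16 (R 4.3.3) fitting the medium to the 10 libraries at once, on 5 residual degrees of freedom, with TMM scaling and 2-sided tests, and the script was tested on simulated data. SE is derived from the fold change and the root of the F statistic. For the 4 single libraries, 0.5 counts were added before taking log2 ratios.

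The members and the 9 gene lists were chosen with earlier results of these data known. The plan named each list by its called genes with the largest change, at most 3 in a comparison, and at most 2 uncalled genes with the highest CPM. Serpinh1 and some of the fibroblast, endoderm and pluripotency markers named fell outside this rule. Alternatives were DESeq2 1.42.0, its size factors in edgeR, no filter, unique hits, a replicate block and leaving out each library, and for the single libraries total-count scaling and a minimum of 50 counts.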

Additional observations from a re-analysis of the deposited data

How the results depend on the processing

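Of the values of single members under the alternatives, 429 kept their direction and side of the threshold, 39 dropped below it, 11 passed it and 7 turned direction. The 7 that turned were not called. Plod1 in L-Pro/LIF over FBS/LIF ranged from -0.028645 to 0.00127 over left-out libraries, turning at 0.000299 (FBS/LIF replicate 1) and 0.00127 (L-Pro/LIF replicate 1). P3h1 in VitC/LIF over FBS/LIF ranged from -0.113 to 0.132, with -0.105 without VitC/LIF replicate 1, and was -0.0234 with no filter and -0.0108 on unique hits. P4hb in F/A over FBS/LIF ranged from -0.33 to 0.0766, the extremes being without F/A replicate 2 and replicate 1. Over left-out libraries the count of members called was 4 in each fit of L-Pro/LIF over FBS/LIF, 0 in each of VitC/LIF, 4 to 6 in 2i/LIF and 4 to 7 in F/A over FBS/LIF, 6 in each of L-Pro/LIF over VitC/LIF and 0 to 5 in F/A over L-Pro/LIF, where unique hits called 7. The single member past the fold between day 5 and day 3 of F/A, P4ha3, became 0 when at least 50 counts were required. Genes called over all ranged over left-out libraries from 2003 to 2234 in L-Pro/LIF (3852 with all), 6 to 12 in VitC/LIF (108), 2926 to 3303 in 2i/LIF (4859) and 4338 to 8458 in F/A (7436) over FBS/LIF, 2857 to 3050 in L-Pro/LIF over VitC/LIF (4777) and 750 to 6287 in F/A over L-Pro/LIF (3527). For VitC/LIF over FBS/LIF DESeq2 called 403, no filter 263 and unique hits 243. The left-out fits use fewer libraries, and the cause was otherwise not tested.

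Deviations of same-numbered libraries from their medium correlated at 0.124 to 0.518 in 9 of 10 pairs of media and at 0.0983 for FBS/LIF with F/A, so the rule of over 0.1 in every pair was missed by 1, and no label says what the number marks. The libraries with 1 number also differ technically: median effective length was 39.4 to 54.1 bases above that of FBS/LIF replicate 1 in every replicate 2, against -1.0 to 7.0 in replicate 1, and the block lowered the common biological coefficient of variation from 0.238 to 0.189. Each medium has 1 library of each number. With the replicate number as a block, members called were 5, 2 and 6 in L-Pro/LIF, VitC/LIF and 2i/LIF and 6 in F/A over FBS/LIF, 8 in L-Pro/LIF over VitC/LIF (P3h1 added, adjusted p = 0.049) and 3 in F/A over L-Pro/LIF (Crtap lost, adjusted p = 0.0689), with 3721, 86, 4737, 7292, 4678 and 3235 genes called in the same order. Depth limits P4ha3 in every library and P3h2 in VitC/LIF and 2i/LIF.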
